A study of Mus musculus with 4 samples.

Results

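The interleukin-1 (IL-1) family and the proximal part of its receptor pathway were followed in 4T1 cells, a mouse mammary carcinoma cell line labelled as epithelial and wild type and used as a model of breast cancer. The set was given by name and holds 10 genes of the 21840 in the deposited table: the ligand and antagonist genes Il1a, Il1b, Il1rn, Il18 and Il33, the receptor genes Il1r1, Il1rap and Il1rl1, the adaptor gene Myd88 and the kinase gene Irak1. Of these, 9 were matched to a row; for Il1rn, the gene of the IL-1 receptor antagonist, 0 rows were matched and it is not analysed here. RNA sequencing was done on 2 libraries of cells given recombinant IL-17A (rIL17) and 2 libraries of cells given phosphate-buffered saline (PBS); neither the dose nor the length of treatment is given in the sources used here. All 4 libraries come from the same line in the same serum-containing medium. The labels do not tie replicates to separate cultures, so each p-value reflects only how far these libraries spread, and that spread may be technical.

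IL-1α and IL-1β both bind the receptor chain IL-1R1, which then recruits the accessory chain IL-1RAP. The joined intracellular domains bind the adaptor MyD88, which gathers IRAK kinases and leads to NF-kB and MAP kinase activation; IL-18 and IL-33 use receptor pairs of their own that end in the same adaptor, and IL-33 shares the chain IL-1RAP. IL-1α and IL-33 can act as alarmins when released from damaged epithelial cells, whereas IL-1β and IL-18 are usually cut by caspase-1 before release. IL-17A and IL-1 receptors are known to converge on the same NF-kB target genes in epithelial cells.

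Of the ligand genes, Il1a, Il1b and Il33 had the widest differences among the 10, and the 250 bases before a start site of each are shown to give the sequence that bears on their transcription; motifs were sought in these windows. The sequences are RefSeq's on GRCm38.p6, the mm10 build, read 5′ to 3′ on the gene's strand, and capitals mark the motif matches. The Il1a and Il1b windows lie on the minus strand at chr2:129309973-129310222 and chr2:129371140-129371389, and the Il33 window, at the second of its annotated starts and chosen after its matches were seen, lies on the plus strand at chr19:29945540-29945789.
Il1a: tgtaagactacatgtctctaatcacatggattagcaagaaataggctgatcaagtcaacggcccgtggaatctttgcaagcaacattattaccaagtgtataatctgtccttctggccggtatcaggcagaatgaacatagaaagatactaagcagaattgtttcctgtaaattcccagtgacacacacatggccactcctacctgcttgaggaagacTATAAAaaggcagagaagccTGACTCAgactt
Il1b: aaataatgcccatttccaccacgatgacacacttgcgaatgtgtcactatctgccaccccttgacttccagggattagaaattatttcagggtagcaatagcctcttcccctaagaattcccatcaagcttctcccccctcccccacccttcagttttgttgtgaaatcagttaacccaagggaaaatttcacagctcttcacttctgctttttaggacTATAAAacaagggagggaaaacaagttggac
Il33: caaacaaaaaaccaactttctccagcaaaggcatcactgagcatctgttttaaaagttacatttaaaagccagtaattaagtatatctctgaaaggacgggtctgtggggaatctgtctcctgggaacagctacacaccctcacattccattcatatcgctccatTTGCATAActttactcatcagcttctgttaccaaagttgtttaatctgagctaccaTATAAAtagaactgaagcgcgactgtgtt
The motifs searched on both strands were TATAAA, the AP-1 type TGANTCA, the C/EBP type TTGCNNAA, the NF-kB type GGGANTTCC and a longer NF-kB type given here by name alone. TATAAA begins at -32 in Il1a, at -31 in Il1b and at -29 in the Il33 window shown, while the window at the other Il33 start holds it at -203; it is a motif found anywhere in 12.4% of 32851 windows of the same length. Il1a also holds TGACTCA from -12 to -6 (6.75% of windows hold the AP-1 type). The Il33 window shown holds TTGCATAA from -85 to -78 (9.56% hold the C/EBP type), and the window at the other Il33 start lacks that type. Outside the windows shown, the C/EBP type lies from -133 to -126 in a window of Il1r1 and from -34 to -27 in a window of Il1rl1. A window of Il1rn holds the AP-1 type. The letters of the shorter and the longer NF-kB type, held by 1.43% and 1.41% of windows, are not in these 3 windows. A match describes letters and shows no binding.

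The libraries held 18005398 and 17767101 normalized counts in rIL17 and 17631228 and 17413365 in PBS. These values behave as reads assigned to genes and divided by 1 scaling factor per library would. Genes were tested where every library of 1 group had at least 10 normalized counts and the mean was at least 1 CPM; of 12515 genes tested with limma, 78 were higher and 23 lower in rIL17 at a Benjamini-Hochberg adjusted p below 0.05, together 0.807%. The PBS libraries lay farther apart than the rIL17 libraries (SD of the log2 difference between replicates 0.234 in rIL17 and 0.376 in PBS), and they differed along transcript GC content. Over the 3198 tested genes under 45% GC, the median log2 difference of a gene, PBS replicate 2 minus PBS replicate 1, was -0.26. Over the same genes, the median log2 fold change of rIL17 over PBS was 0.23, or 0.10 without PBS replicate 2. Of the genes followed here, Il1a, Il33, Il1r1, Il1rap and Il1rl1 have a GC content of 41.3% to 43.9%. That of Il18 and Il1b is 45.1% and 46.3%, and that of Myd88 and Irak1 is 53.5% and 52.8%. Values with a GC correction or without a PBS library are therefore given beside many, but not all, of the results. All 8 epithelial markers were matched, with a summed level of 45719 and 47775 normalized counts in rIL17 and 53714 and 57943 in PBS. The keratin gene Krt8 had 25498 and 26467 normalized counts in rIL17 and 29749 and 32665 in PBS (log2 fold change -0.26, limma adjusted p = 0.154). Cdh1, encoding E-cadherin, had 143.8 and 139.4 in rIL17 and 208.0 and 180.0 in PBS (log2 fold change -0.45, limma adjusted p = 0.212), Epcam overlapped between groups, and Krt14 was at 5.89 or less. Of 9 myeloid markers 6 were matched, and their summed level of 1039 and 967 in rIL17 and 931 and 967 in PBS came mainly from Cd14 and Cd68. The leukocyte gene Ptprc had 3.02 and 2.01 in rIL17 and 0 in both PBS libraries, and Fcer1g had 1.01 and 3.01 against 0 in both. Lyz2 had 11.06 and 2.01 in rIL17 and 2.94 and 0.99 in PBS, and Csf1r had 1.01 and 3.01 against 2.94 and 3.98. The values of Ptprc, Fcer1g and Csf1r lie near about 3 normalized counts, the limit that a count of 0 allows. Of 6 neutrophil markers 4 were matched, summing to 39.2 and 18.1 in rIL17 and 15.7 and 14.9 in PBS, mostly from S100a8. Of 6 fibroblast markers 4 were matched, summing to 2971 and 2965 in rIL17 and 2442 and 2552 in PBS, mostly from Pdgfra; Dcn had a log2 fold change of 1.26, whereas Col1a1 and Pdgfrb had -0.55 and -0.47. Endothelial markers (3 of 4 matched) summed to 8.02 or less, of the 5 mast cell and 5 T and B cell markers 0 were matched, and 0 marker genes of any list passed the test. The part of these markers in the results below was not tested. In such bulk samples, fewer cells of a type and less RNA per cell cannot be told apart.

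The 3 ligand genes Il1a, Il1b and Il33 had more than 2-fold more RNA in rIL17 than in PBS by the ratio of group means. Of tested genes, which leave out Il1b, 2.02% had a fitted fold of at least 2 upward. In each of the 3, both rIL17 libraries lay above both PBS libraries, as in 25.8% of all tested genes. The fitted fold of Il33 was 1.69 without PBS replicate 2 and 3.43 without PBS replicate 1. In a fit that kept lower genes, that of Il1b was 1.84 without rIL17 replicate 1 and 3.14 without rIL17 replicate 2. Of the 7 genes that could be tested, 0 passed over all genes. Il1a came nearest (limma adjusted p = 0.0565), and 3 of the 7 had an unadjusted p below 0.05, as had 16.6% of all tested genes. By limma-voom 1 of the 7, Il1a, passed, as did 1.53% of all tested genes.

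Il1a encodes IL-1α, which is active as a precursor and can also enter the nucleus. It lies on chromosome 2 (129299610 to 129309972, minus strand). Il1a had 147.8 and 121.4 normalized counts in rIL17, against 56.9 and 42.8 in PBS. The lowest rIL17 library was thus more than 2 times the highest PBS library, a wider gap than that between the replicates of either group. The means were 135 ± 18.7 in rIL17 and 49.8 ± 10.0 in PBS (SD, n = 2 per group), a ratio of 2.70, and the log2 fold change on normalized counts plus 1 was 1.42 (SE 0.22, 95% confidence interval 0.89 to 1.96). Corrected for GC content the log2 fold change was 1.10 (limma adjusted p = 0.0257), and without PBS replicate 2 it was 1.22 (limma adjusted p = 0.00203). Without PBS replicate 1 it was 1.62 (limma adjusted p = 1.68e-05), whereas without rIL17 replicate 1 or 2 it was 1.28 and 1.56 and did not pass (limma adjusted p = 0.618 and 0.320). With 1 library left in a group, the spread comes from the other group alone. Of all tested genes, 5.48% passed without PBS replicate 2, 21.8% without PBS replicate 1, 0.00799% without rIL17 replicate 1 and 0.0320% without rIL17 replicate 2. Il1a also passed with robust shrinkage, upper-quartile scaling and total-count scaling, as did 1.22%, 1.26% and 1.20% of tested genes; the GC correction passed 2.27% and the replicate number as a block 8.25%. Il1a shares 222 exon bases with the opposite-strand gene Gm14023. Whether the counting used strand is not given in the sources used here; Gm14023 had 13.1 and 4.01 normalized counts in rIL17 and 4.91 and 2.98 in PBS, far below Il1a.

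Il1b, encoding the secreted cytokine IL-1β, lies beside Il1a on chromosome 2 (129364570 to 129371139, minus strand) and was expressed at a low level. It had 28.2 and 16.1 normalized counts in rIL17, against 6.87 and 9.94 in PBS. Both rIL17 libraries were above both PBS libraries, but the rIL17 libraries lay farther from each other than the lower of them lay from PBS. The means were 22.1 ± 8.56 in rIL17 and 8.41 ± 2.18 in PBS (SD, n = 2 per group). Its mean of under 1 CPM kept it out of the test. In a fit that kept genes down to a mean of 1 normalized count in a group, its log2 fold change was 1.26 (SE 0.42, 95% confidence interval 0.06 to 2.47, limma adjusted p = 0.375), and 0 of all 20677 genes passed there (0%). The antisense gene Il1bos, which shares 25 exon bases with Il1b, had 2.01 normalized counts in both rIL17 libraries and 7.85 and 2.98 in PBS.

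Il33 encodes IL-33, a nuclear alarmin of epithelial and stromal cells, and lies on chromosome 19 (29925114 to 29960718, plus strand). Il33 had 71.4 and 51.1 normalized counts in rIL17, against 35.3 and 16.9 in PBS. The groups did not overlap, but PBS replicate 2 lay 1.02 below PBS replicate 1 on the log2 scale of normalized counts plus 1. Between the means of 61.3 ± 14.3 in rIL17 and 26.1 ± 13.0 in PBS (SD, n = 2 per group) the log2 fold change was 1.27 (SE 0.40, 95% confidence interval 0.31 to 2.23, limma adjusted p = 0.204). The GC correction brought the log2 fold change of Il33 to 1.03. Leaving out PBS replicate 2 gave 0.76, whereas leaving out PBS replicate 1 gave 1.78.

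Il18, encoding IL-18, a cytokine that induces interferon-γ in lymphocytes, lies on chromosome 9 (50554827 to 50581840, plus strand). It had 26.1 and 32.1 normalized counts in rIL17, against 21.6 and 16.9 in PBS. The groups lay side by side without overlapping, with a gap slightly smaller than the distance between the replicates of either group. Its log2 fold change of 0.58 (SE 0.33, 95% confidence interval -0.22 to 1.37) did not pass (limma adjusted p = 0.431), and was 0.47 with the GC correction.

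**Figure D1:**
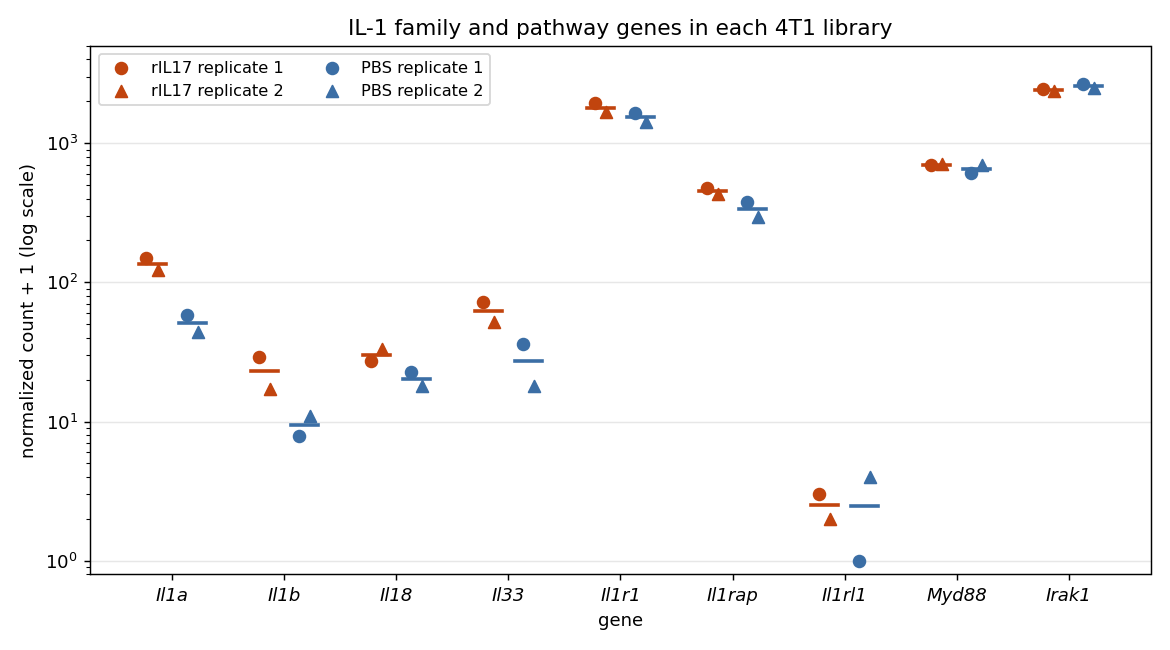
Normalized counts plus 1 (log scale) of the 9 matched genes in each library, with rIL17 in orange at the left of each pair and PBS in blue at the right, circles for replicate 1, triangles for replicate 2 and lines at the group means. Il1a, at 121.4 and 147.8 in rIL17 and 42.8 and 56.9 in PBS, shows a clear gap between groups, Myd88 overlaps, and Il1rl1 sits at 0 to 2.98 in all libraries.

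Of the receptor chains, Il1r1 and Il1rap had higher counts than any of the ligand genes, and their fold changes were small. Il1r1, encoding the signalling receptor of IL-1α and IL-1β (chromosome 1, 40225080 to 40317257, plus strand), had 1936 and 1669 normalized counts in rIL17, against 1653 and 1418 in PBS. The lower rIL17 library and the higher PBS library almost met. The log2 fold change was 0.23 (SE 0.11, 95% confidence interval -0.03 to 0.49, limma adjusted p = 0.344). It was 0.08 with the GC correction, 0.12 without PBS replicate 2 and 0.34 without PBS replicate 1.

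Il1rap, encoding the accessory chain shared by the receptors of IL-1 and IL-33 (chromosome 16, 26581704 to 26730117, plus strand), had 476.5 and 431.3 normalized counts in rIL17, against 379.7 and 292.4 in PBS. The groups did not overlap, and PBS replicate 2 was the lowest of the 4. The log2 fold change was 0.44 (SE 0.15, 95% confidence interval 0.09 to 0.80, limma adjusted p = 0.223). It was 0.18 with the GC correction, 0.26 without PBS replicate 2 and 0.63 without PBS replicate 1. Il1rap shares 552 exon bases with the opposite-strand gene Gm20319, for which 0 rows were matched.

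Il1rl1, encoding ST2, the chain that binds IL-33 (chromosome 1, 40429570 to 40465415, plus strand), was near 0. It had 2.01 and 1.00 normalized counts in rIL17, against 0 and 2.98 in PBS. All 4 libraries were at or below about 3 normalized counts, so no fold change is given. If the values are scaled reads, this is 3 reads, the limit that a count of 0 allows. RNA of the IL-33 receptor chain was therefore not detectable above that limit at this depth.

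Myd88, encoding the adaptor of the IL-1, IL-18, IL-33 and most Toll-like receptors (chromosome 9, 119335934 to 119341411, minus strand), had 696.6 and 704.0 normalized counts in rIL17, against 613.2 and 698.1 in PBS. The groups overlapped, since PBS replicate 2 lay between the rIL17 libraries. The log2 fold change was 0.10 (SE 0.10, 95% confidence interval -0.13 to 0.33, limma adjusted p = 0.642), and it was 0.19 without PBS replicate 2 and 0.00 without PBS replicate 1. Myd88 shares 290 exon bases with the opposite-strand gene Acaa1a, which had 1678 and 1771 normalized counts in rIL17 and 1717 and 1836 in PBS, so its count is uncertain if strand was not used.

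Irak1, encoding the kinase that MyD88 recruits through IRAK4 (chromosome X, 74013914 to 74023918, minus strand), had 2455 and 2389 normalized counts in rIL17, against 2654 and 2480 in PBS. In this gene alone of the set the rIL17 libraries were the lower pair, by a margin smaller than the distance between the PBS libraries. The log2 fold change was -0.08 (SE 0.07, 95% confidence interval -0.24 to 0.08, limma adjusted p = 0.571), and it was -0.13 without PBS replicate 2 and -0.03 without PBS replicate 1.

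Both rIL17 libraries lay above both PBS libraries in 5 of the 7 tested genes (Il1a, Il18, Il33, Il1r1 and Il1rap), as in 25.8% of all tested genes, and below in 1, as in 25.4% of all tested genes. The median log2 fold change of the 7 was 0.44, against -0.003 over all genes tested; it was 0.18 with the GC correction and 0.26 without PBS replicate 2. The plot of fold changes sets these values side by side.

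**Figure D2:**
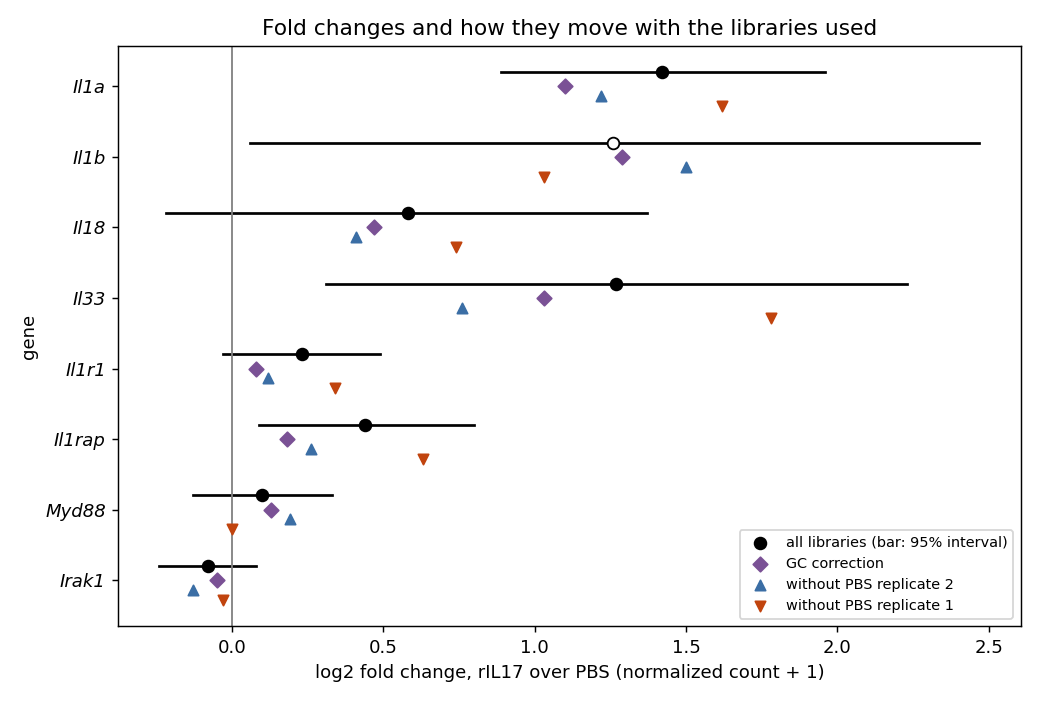
Log2 fold changes of rIL17 over PBS on normalized counts plus 1, with dots and 95% confidence intervals from all libraries, diamonds after the GC correction, and triangles without PBS replicate 2 (pointing up) or replicate 1 (pointing down); the open dot of Il1b is from the fit that kept low genes. The interval of Il1a runs from 0.89 to 1.96, and those of Il18, Il1r1, Myd88 and Irak1 cross 0.

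Set against the merged length of all annotated exons, the set spanned a wide range of levels. In rIL17 libraries Irak1 had 514 normalized counts per kilobase, Il1r1 283, Myd88 272, Il1a 68.2, Il1rap 40.0, Il18 28.2, Il33 21.2, Il1b 11.6 and Il1rl1 0.219. In PBS libraries the levels per kilobase were 544 for Irak1, 255 for Myd88, 241 for Il1r1, 29.6 for Il1rap, 25.2 for Il1a, 18.7 for Il18, 9.05 for Il33, 4.41 for Il1b and 0.216 for Il1rl1. Irak1 was thus highest in both groups, followed by Il1r1 and Myd88, with Il1rap and the ligand genes below them. Il1r1 and Myd88 overlapped between libraries in both groups, and Il1a and Il1rap overlapped in PBS but not in rIL17, where Il1a lay above Il1rap in both libraries. Il1rap has 11360 bases of annotated exon against 1974 in Il1a, so its level per kilobase is understated if the cells use a shorter isoform.

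**Figure D3:**
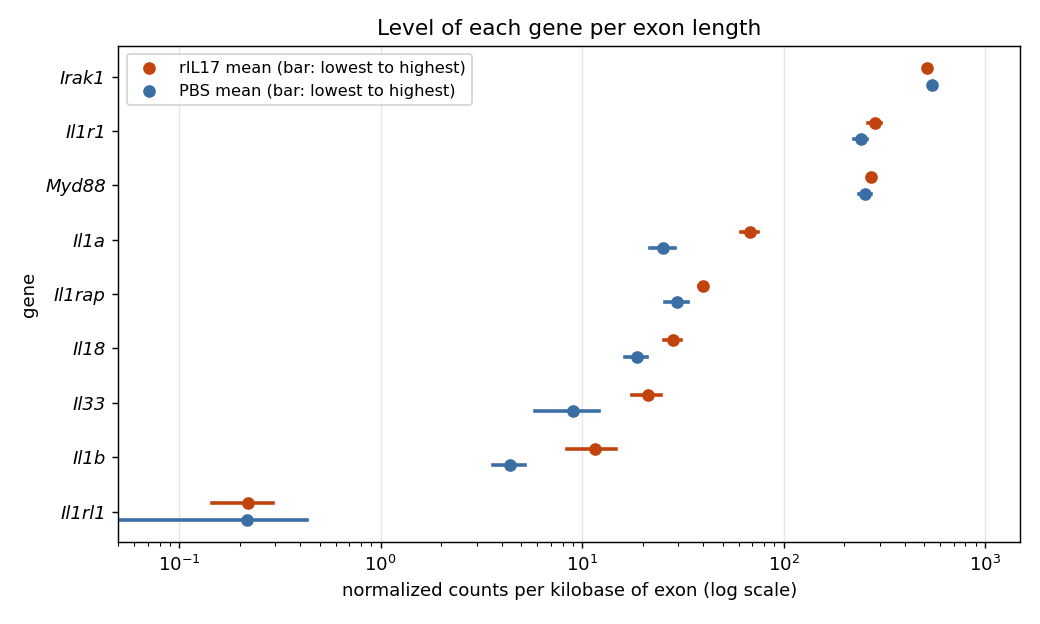
Normalized counts per kilobase of annotated exon (log scale) for each matched gene, ordered by the rIL17 level, with rIL17 above PBS, dots at the group means and bars from the lower to the higher library; the PBS bar of Il1rl1 reaches 0 and is drawn to the axis end. Irak1 stands highest at 514 in rIL17 and 544 in PBS, and Il1rl1 lowest.

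The wider pathway was described from 5 lists of ligands, receptors, signal proteins, processing enzymes and Toll-like receptors, which include the 10 genes above. Over these lists, 0 genes passed in either direction in limma over all genes. An unadjusted limma p below 0.05 was reached by 2 of 3 tested ligands and antagonists (66.7%) and 2 of 5 receptors and decoys (40.0%). Of 9 inflammasome and processing genes 4 reached it (44.4%), and of 7 Toll-like receptor genes and cofactors 3 (42.9%). Of all tested genes, 16.6% reached it. Among ligands and antagonists, 4 of 10 were matched and 3 tested, their median log2 fold change being 1.27, or 1.03 with the GC correction and 0.76 without PBS replicate 2. The genes of the IL-36 cytokines and Il1f10 were not matched and are not analysed here.

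Among receptors and decoys, 8 of 11 were matched and 5 tested, 3 of them higher and 2 lower; their median log2 fold change was 0.23, or 0.08 with the GC correction and 0.12 without PBS replicate 2. Il18r1, the gene of the other chain of the IL-18 receptor, Il1rapl1 and Il1rapl2 were not matched and are not analysed here. Il18rap, the accessory chain of the IL-18 receptor, had 267.4 and 250.7 normalized counts in rIL17, against 177.6 and 191.9 in PBS. Its log2 fold change was 0.49 (SE 0.12, limma adjusted p = 0.154), and 0.38 with the GC correction (limma adjusted p = 0.191). The log2 fold change of Il18rap was 0.54 without PBS replicate 2 and 0.43 without PBS replicate 1. It was 0.44 without rIL17 replicate 1 and 0.53 without rIL17 replicate 2. Sigirr, encoding an inhibitory receptor of the family, had 1655 and 1741 normalized counts in rIL17 and 1830 and 2105 in PBS. The decoy receptor gene Il1r2 stayed between 1.00 and 4.02 in all libraries, and Il18bp, encoding a soluble IL-18 antagonist, had a log2 fold change of -0.24 (limma adjusted p = 0.598).

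Among MyD88 and IRAK signal proteins, 18 of 20 were tested, 10 higher and 8 lower, their median log2 fold change being 0.05, or -0.02 with the GC correction. An unadjusted p below 0.05 was reached by 2 of the 18 (11.1%), against 16.6% of all tested genes. These were Tirap, an adaptor of Toll-like receptors (log2 fold change 0.24, SE 0.07, limma adjusted p = 0.190), and Irak2, a kinase of the same complex (0.28, SE 0.10, limma adjusted p = 0.270). Irak2 had 544.9 and 477.4 normalized counts in rIL17, against 415.0 and 427.6 in PBS. Tab3, which helps activate the kinase TAK1, had a log2 fold change of 0.41 (limma adjusted p = 0.347). That value was 0.11 with the GC correction, 0.13 without PBS replicate 2 and 0.70 without PBS replicate 1. Chuk, encoding the kinase IKKα, had a log2 fold change of 0.29 (limma adjusted p = 0.356). That value was -0.03 with the GC correction, 0.10 without PBS replicate 2 and 0.48 without PBS replicate 1.

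Among inflammasome and cytokine-processing genes, 13 of 14 were matched and 9 tested, 7 higher and 2 lower, with a median log2 fold change of 0.16. Casp1, encoding the protease that matures IL-1β and IL-18, had 576.0 and 531.5 normalized counts in rIL17, against 466.0 and 346.1 in PBS. Its log2 fold change was 0.46 (SE 0.15, limma adjusted p = 0.222). That value was 0.13 with the GC correction, 0.25 without PBS replicate 2 and 0.68 without PBS replicate 1. Nek7, a partner of the sensor NLRP3, had 0.36 (limma adjusted p = 0.204) and -0.04 with the GC correction. Its log2 fold change was 0.21 without PBS replicate 2 and 0.51 without PBS replicate 1. Capn2, a calpain subunit gene of the protease class that cuts pro-IL-1α, had 0.21 (SE 0.06, limma adjusted p = 0.185), and Gsdmd, encoding the pore-forming gasdermin D, had -0.21 (SE 0.08, limma adjusted p = 0.271). The inflammasome adaptor gene Pycard was at 13.7 to 20.1 normalized counts and the sensor gene Nlrp3 at 25.5 to 40.1 over the 4 libraries.

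Of the Toll-like receptor genes and cofactors that use the same adaptor, 8 of 10 were matched and 7 tested, 5 higher and 2 lower, with a median log2 fold change of 0.14. Tlr4, the lipopolysaccharide receptor, had 606.2 and 584.7 normalized counts in rIL17, against 369.9 and 266.5 in PBS. The log2 fold change of Tlr4 was 0.92 (SE 0.16, 95% confidence interval 0.53 to 1.31, limma adjusted p = 0.0737). Tlr4 passed with the GC correction at 0.42 (limma adjusted p = 0.0371), as did 2.27% of all tested genes. Its log2 fold change was 0.69 without PBS replicate 2 and 1.16 without PBS replicate 1. It was 0.89 without rIL17 replicate 1 and 0.95 without rIL17 replicate 2. Tlr2, the receptor of bacterial lipopeptides, had 649.4 and 606.8 in rIL17 and 758.4 and 806.5 in PBS, a log2 fold change of -0.32 (SE 0.09, limma adjusted p = 0.169). Ly96, the cofactor of TLR4 also called MD-2, had 64.3 and 56.2 in rIL17 and 39.2 and 4.97 in PBS. Its log2 fold change was 1.98 (SE 0.82, limma adjusted p = 0.302), and 0.60 without PBS replicate 2.

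**Figure D4:**
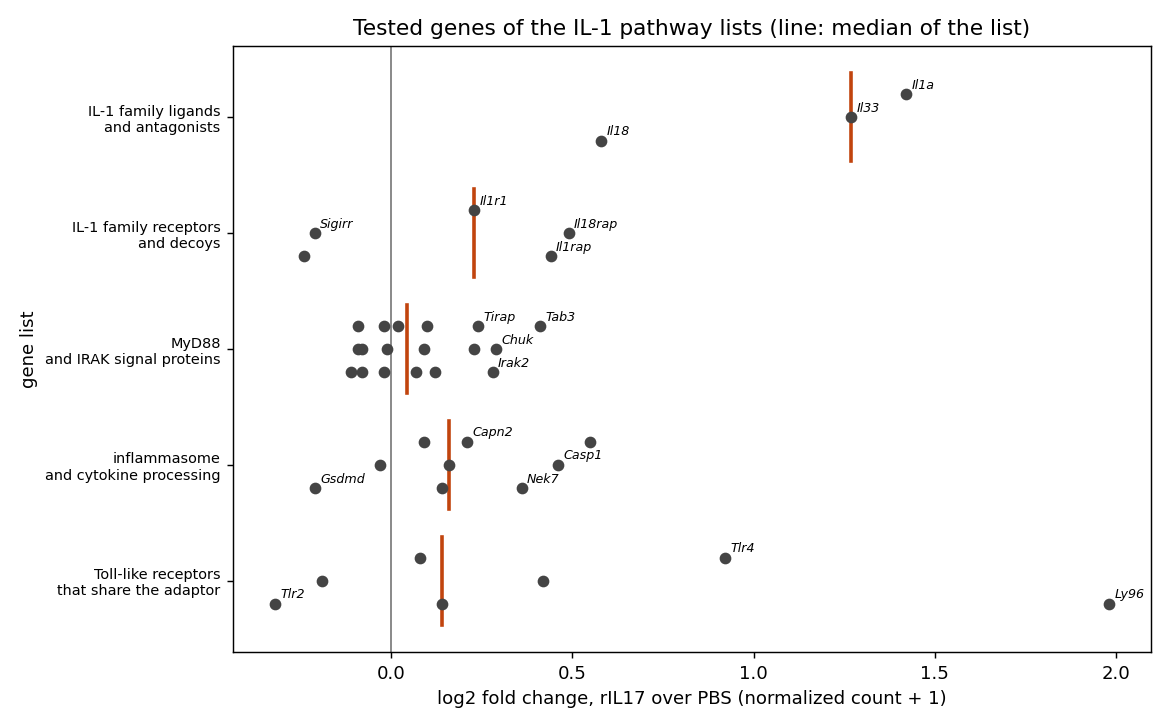
Log2 fold changes of rIL17 over PBS on normalized counts plus 1 for each tested gene of the 5 lists, with an orange line at each list's median. The ligand genes Il1a and Il33, the receptor gene Tlr4 and its cofactor gene Ly96 stand to the right, at 1.42, 1.27, 0.92 and 1.98. The value of Ly96 was 0.60 without PBS replicate 2 and 3.36 without PBS replicate 1. Most signal proteins lie near the list's median of 0.05.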

How the data were processed

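Per the labels' protocols a directional kit was used; mm10, HISAT2 2.0.5, featureCounts 1.5.0-p3 and CASAVA are named in the submitters' processing notes. Neither the annotation release nor the strand setting is given in the sources used here. The authors deposited 1 table of a normalized signal, in which each library's values are whole multiples of 1 step (100.0% within 0.001), as read counts divided by 1 size factor would be. Symbols were matched for 21819 of 21840 rows; 0 rows were at 0 in every library. Positions and exon lengths are those of GENCODE M21. The fit was limma 3.58.1 (R 4.3.3) with a mean-variance trend on log2(normalized count + 1), with no term but treatment, adjusted over all genes tested by Benjamini-Hochberg; such fold changes understate low genes. The filter was switched to the stricter one after a test on simulated data. There the fit that kept genes near 1 count recovered 0% of the planted 2-fold and 4-fold changes, and the stricter one 100%. Changes were planted only in well-expressed genes, and the simulated libraries held no GC difference and the same spread in both groups. The simulation therefore does not show what either filter recovers in these libraries. That switch was made after the values of these genes under both filters had been seen, and the genes and lists were chosen with earlier results of these data known. Outside the genes of the set, the text names up to 4 genes of each list with the smallest p, and Il1r2, Il18bp, Pycard, Nlrp3 and the overlapping genes, chosen after their values were seen. An exact permutation test of 2 against 2 libraries cannot go below p = 0.333, so none is given. Alternatives included scaling, filters, limma-voom, a pseudocount of 0.1, the replicate number, each library left out, and a lowess correction (span 0.3) of each library on GC content, taken from a gene's longest transcript. The depth of each library puts 3 reads, the limit a count of 0 allows, near 3 normalized counts; this covers counting error only.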

Additional observations from a re-analysis of the deposited data

How the results depend on the processing

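Over all genes, 101 passed; 158 did with upper-quartile scaling, 191 with limma-voom, 153 with robust shrinkage, 284 with the GC correction (160 higher and 124 lower in rIL17) and 6 at an adjusted p below 0.01, and 0 with no filter or with the lenient filter (a group mean of 1 normalized count or more), where 0 of the set and 0 of the lists passed. Leaving out each library in turn gave 1 to 2734 genes, 0 to 4 genes of the set and 0 to 15 of the pathway lists. Of the set, 0 passed, whereas 1, Il1a, passed with upper-quartile scaling, total-count scaling (chosen after seeing the data), limma-voom, robust shrinkage and the GC correction. Of the lists, 0 passed, against 2 with upper-quartile scaling, limma-voom and the GC correction and 1 with total-count scaling and robust shrinkage. With the replicate number as a block, 1032 of all genes, 3 of the set (Il1a, Il33 and Il1rap) and 6 of the lists passed, and with the GC correction and the replicate block 674, 1 and 3. Replicate differences correlated at 0.16 across genes between the groups, but with 2 pairs and no label that ties the numbers to a shared culture the samples share only a number. Chuk and Nek7 turned to -0.03 and -0.04 with the GC correction, with and without the block. The direction of Il1a, Il1b, Il18, Il33, Il1r1 and Il1rap was the same under every alternative run; Myd88 was at 0.00 without PBS replicate 1, and Irak1 turned to 0.04 where the GC correction was combined with the lenient filter. Why the counts of passing genes move was not tested. The planned count models on whole reads were not run. The values of each column are whole multiples of 1 step. The steps of 3 of the 4 columns (1.0053, 1.0029 and 0.9944) lie so near 1 that the unit check did not accept them.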
